A study of Mus musculus with 157 samples.

Results

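The genes described here are the 530 expressed protein-coding genes of mouse chromosome 6, the chromosome that carries the MYC insertion of the mice labelled MYCChr6. They were chosen by position and level: of 1094 protein-coding genes on GRCm38 chromosome 6, 542 had a mean of at least 1 CPM, the counts of a gene scaled to the library total, over the libraries, and 12 were left out by name because they mark T cell identity or are ribosomal (Cd4, Cd8a, Cd8b1, Rpl32 and 8 Gimap genes). Just inside the minimum were Gm9008 at a mean of 1.01 CPM and Mindy4 at 1.02 CPM, and just outside were Ptpro at 0.993 CPM and Tspan33 at 0.986 CPM.

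Cdc20 activates the anaphase-promoting complex, and the spindle checkpoint holds it back through Mad2 until chromosomes are attached. Mad2 cannot bind the AAA form of Cdc20, so cells that carry it can divide before attachment is complete and gain or lose chromosomes. A cell with an extra copy of a chromosome usually makes more RNA from genes all along it, whatever their function. MYC is a transcription factor that drives growth, glycolysis and ribosome production, and the mouse Myc gene itself lies on chromosome 15. Among the genes of chromosome 6 are Mad2l1, which encodes Mad2, the cell cycle genes Ccnd2 and Cdkn1b, the signalling kinase gene Braf, and several glycolytic enzymes.

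The study sequenced total RNA from bulk mouse thymus and thymic lymphomas. Non-tumoral thymus came from RERT2-Cdc20(+/D) mice (n = 6), RERT2-Cdc20(+/D) with MYCChr6 (n = 2), RERT2-Cdc20(D/AAA) (n = 9) and RERT2-Cdc20(D/AAA) with MYCChr6 (n = 3). Tumours without MYCChr6 came from RERT2-Cdc20(D/AAA) (n = 22), the same with p53(+/D) (n = 10) and p53(-/-) (n = 1). Tumours with MYCChr6 came from RERT2-Cdc20(D/AAA) (n = 3), LCK-Cdc20(D/AAA) (n = 14), LCK-Cdc20(+/D) (n = 4) and CD4-Cdc20(D/AAA) (n = 2). All groups but p53(-/-) carry a Cdc20 allele labelled D, controls included. RERT2, LCK and CD4 name the driver of each line, and no MYCChr6 thymus of the LCK or CD4 lines was analysed here, nor any RERT2-Cdc20(+/D) tumour. The labels state neither ages nor where on the chromosome the insertion lies. Nothing says that the libraries of a group came from separate mice, and p-values therefore cover library-to-library spread, which may be technical. Groups are called below by driver, Cdc20 genotype and MYCChr6. Replicate numbers follow the order of the samples within each group and do not come from the labels.

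The 76 libraries held 1708619 to 8009572 counts each, of which a single gene, CT010467.1, took 30.1% to 56.0%. Of the markers checked, the summed level of 7 thymocyte genes had a median of 5661 CPM in +/D thymus, 2556 CPM in RERT2 D/AAA tumours and 1175 CPM in LCK D/AAA MYCChr6 tumours, where it ranged from 239 to 2562 CPM. Summed B cell markers had medians of 261, 94.5 and 523 CPM in the same 3 groups. One LCK D/AAA MYCChr6 library, replicate 9, reached 5588 CPM for the B cell markers, and the scores, bins, counts and calls of its group are also given without it. Summed myeloid markers had medians of 36.0, 84.6 and 287 CPM, and stromal and epithelial markers 4.85, 38.0 and 10.8 CPM, in those groups. In RERT2 D/AAA MYCChr6 tumours the medians were 1098 CPM for thymocyte, 486 CPM for B cell, 184 CPM for myeloid and 23.0 CPM for stromal markers. In the same order they were 1559, 1019, 316 and 5.49 CPM in LCK +/D MYCChr6 tumours, the highest B cell median of any group. In CD4 D/AAA MYCChr6 tumours they were 1287, 219, 150 and 15.3 CPM. The part of these other cells in the differences below was not tested, and in bulk tissue fewer cells of a type and less RNA per cell cannot be told apart.

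As examples, not as typical promoters of the members, the 250 bases before the start are given for 3 members. All 3 rose in LCK D/AAA MYCChr6 tumours against RERT2 D/AAA tumours. They are Nop2, a nucleolar RNA methyltransferase (chr6:125131633-125131882, plus strand), Cul1, the scaffold of SCF ubiquitin ligases, at the first of its starts (chr6:47453482-47453731, plus strand), and Tpi1, a glycolytic enzyme (chr6:124814159-124814408, minus strand), from RefSeq on GRCm38.p6, 5′ to 3′ on the gene's strand. Capitals mark CACGTG, the E-box that MYC and MAX are known to bind, which reads the same on both strands.
Nop2: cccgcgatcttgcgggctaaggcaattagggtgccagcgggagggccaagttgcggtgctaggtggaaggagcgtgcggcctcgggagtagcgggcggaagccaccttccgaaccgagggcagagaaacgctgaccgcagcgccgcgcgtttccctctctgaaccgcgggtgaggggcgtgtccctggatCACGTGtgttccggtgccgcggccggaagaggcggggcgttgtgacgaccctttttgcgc
Cul1: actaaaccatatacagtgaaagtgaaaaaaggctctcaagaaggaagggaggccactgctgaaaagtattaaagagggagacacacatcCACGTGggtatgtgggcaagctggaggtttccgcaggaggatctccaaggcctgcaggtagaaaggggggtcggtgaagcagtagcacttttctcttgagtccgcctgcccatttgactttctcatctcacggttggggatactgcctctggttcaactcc
Tpi1: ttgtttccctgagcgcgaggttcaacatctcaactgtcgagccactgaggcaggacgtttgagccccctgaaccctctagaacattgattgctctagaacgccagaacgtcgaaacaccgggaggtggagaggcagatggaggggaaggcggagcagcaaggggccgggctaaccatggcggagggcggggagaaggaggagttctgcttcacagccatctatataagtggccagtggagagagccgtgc
Nop2 and the Cul1 start shown hold 1 match each, the other 2 Cul1 starts in the table hold none, and Tpi1 holds none in this window. Cul1 rose by 0.28 in LCK D/AAA MYCChr6 against RERT2 D/AAA tumours (adjusted p = 0.049 by edgeR). In RERT2 D/AAA MYCChr6 tumours its fold change of 0.46 did not pass. The table matched 441 of the 530 members. Of 583 member promoters 5.15% held the E-box, against 6.02% of all 32851 promoters in the table. In LCK D/AAA MYCChr6 tumours against RERT2 D/AAA tumours the median log2 fold change was 0.53 over the 23 tested members with an E-box and 0.50 over the 367 without.

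A chromosome 6 score was computed for each library as the median over the 530 members of the log2 ratio to the gene's mean in the 6 +/D thymus libraries. An extra copy in every cell would give a ratio of 1.5, or 0.58 on the log2 scale, and a library was counted as past the gain level above 0.292, the midpoint between no gain and that value. By this measure 18 of the 23 MYCChr6 tumours were past the gain level, against 1 of the 33 tumours without MYCChr6. None of the 5 MYCChr6 thymus libraries was past it, nor any of the 15 other thymus libraries.

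In the 14 LCK D/AAA MYCChr6 tumours the score ran from 0.00 to 0.801 with a median of 0.465, and 11 were past the gain level. The library at the bottom of that range was the one highest in B cell markers, replicate 9. Without it the score ran from 0.183 to 0.801 with a median of 0.467, and 11 of 13 were past the level. In the 4 LCK +/D MYCChr6 tumours, which have no AAA allele, the scores were 0.435, 0.393, 0.474 and 0.849, so that all 4 were past it. The 3 RERT2 D/AAA MYCChr6 tumours scored 0.437, 0.456 and 0.122, and the 2 CD4 D/AAA MYCChr6 tumours scored 0.253 and 0.473. Each of these 4 groups thus held at least 1 library past the gain level, and 3 of them held a library below it.

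The RERT2 D/AAA tumours scored from -0.228 to 0.483 with a median of -0.02, and replicate 14 alone lay past the gain level. With members of at least 10 CPM 3 of these 22 tumours were past it, and with a prior count of 0.5 it was 2. The p53(+/D) tumours scored from -0.236 to 0.062, and the p53(-/-) tumour scored -0.246. The MYCChr6 thymus libraries scored 0.011 and -0.042 in +/D mice and -0.064, 0.081 and 0.068 in D/AAA mice. These thymus scores lay inside the range of thymus without MYCChr6, from -0.158 to 0.102.

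**Figure D1:**
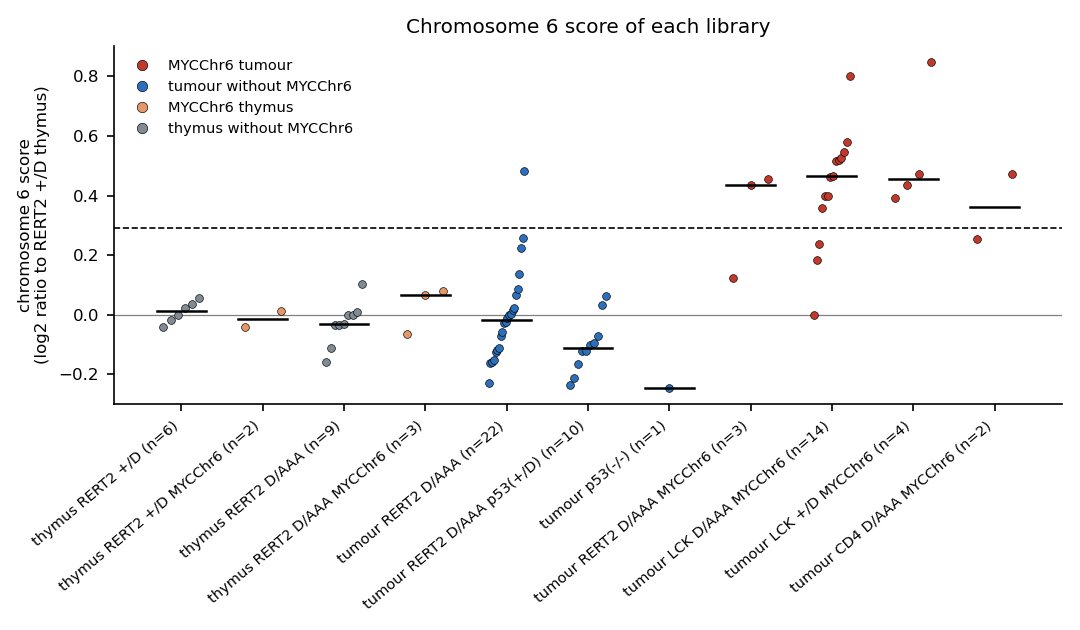
Chromosome 6 score (median log2 ratio of the 530 members to +/D thymus) of each library, by group, with 1 point per library, the group median as a bar and the gain level of 0.292 as a dashed line. Of the 23 MYCChr6 tumours 18 lie above the line, and 1 of the 33 tumours without MYCChr6 does.

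Chromosome 15, which carries the mouse Myc gene, was scored in the same way from its protein-coding genes of at least 1 CPM. They numbered 460 before ribosomal protein genes were left out, as on chromosome 6. All 33 tumours without MYCChr6 were past the same gain level for chromosome 15, with scores from 0.349 to 0.916. Of the 23 MYCChr6 tumours 15 were past it, with scores from -0.03 to 1.04, and 12 of those were past the level for both chromosomes. In the LCK D/AAA MYCChr6 tumours 9 libraries were past both levels, 2 past chromosome 6 alone, 1 past chromosome 15 alone and 2 past neither. Among the thymus libraries the chromosome 15 score passed the level in 4 of 9 D/AAA and 1 of 3 D/AAA MYCChr6 libraries. Chromosome 6 had the highest score of 20 chromosomes in 6 of 14 LCK D/AAA, 3 of 4 LCK +/D, 1 of 3 RERT2 D/AAA and 1 of 2 CD4 D/AAA MYCChr6 tumours.

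**Figure D2:**
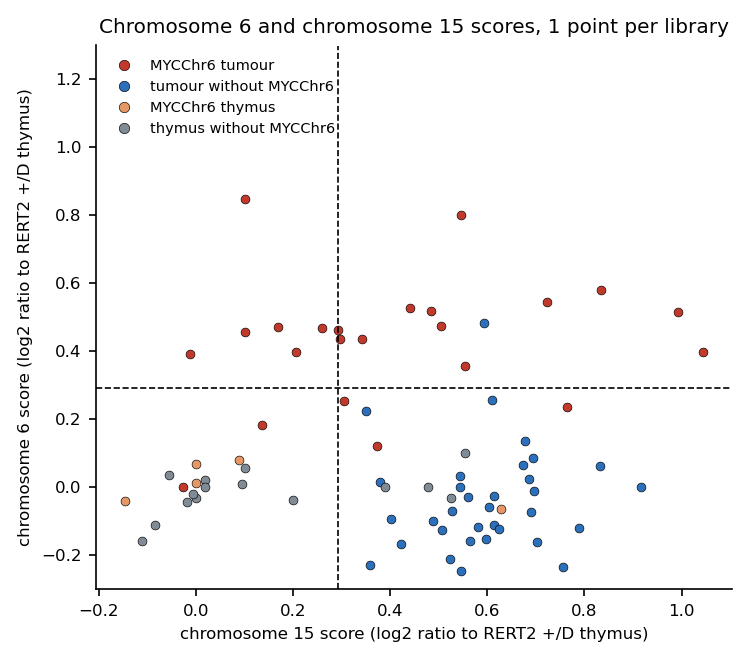
Chromosome 6 score against chromosome 15 score, each a median log2 ratio to +/D thymus, with 1 point per library and dashed lines at the gain level of 0.292. All 33 tumours without MYCChr6 lie to the right of the vertical line, while the MYCChr6 tumours spread from -0.03 to 1.04 on the chromosome 15 axis.

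Single genes were then compared by edgeR's quasi-likelihood test, with p-values adjusted by Benjamini-Hochberg over all genes tested and a threshold of 0.05. Fewer than the 530 members are tested in each comparison, because genes with too few counts in the groups compared are left out, and a gene that enters only through the group where it is high had to differ. All comparisons with +/D thymus share the same 6 reference libraries, and those with RERT2 D/AAA tumours share the same 22. Their counts are set side by side and are not independent of each other. Where a count is given for another tool or with a library left out, the share over all genes in that fit is not reported here. Such counts show only how far the calls depend on the fit.

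Comparing RERT2 D/AAA tumours with and without MYCChr6 keeps the driver and the Cdc20 genotype the same, with 3 libraries against 22. Of the 505 members tested, 60 were higher (11.9%) and 9 lower (1.78%) with MYCChr6, while over all 13708 genes tested 5.65% were higher and 3.57% lower, 9.23% in all. The median member was 0.39 higher on the log2 scale, with an interquartile range of -0.07 to 0.84, and 73.3% of members had a positive fold change. Genes off chromosome 6 had a median of -0.04, and 47.2% of them were positive. Without replicate 1 of the RERT2 D/AAA MYCChr6 tumours the members called numbered 38 in place of 69.

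The larger LCK D/AAA MYCChr6 group was also set against the RERT2 D/AAA tumours, 14 libraries against 22. This comparison was added after the data had been seen, and the driver and MYCChr6 change together in it, so they cannot be told apart. Of 465 members tested, 225 were higher (48.4%) and 34 lower (7.31%), against 18.6% higher and 16.7% lower, 35.3% in all, over the 11130 genes tested. The median member was 0.49 higher on the log2 scale, with an interquartile range of 0.06 to 0.87, and 77.6% of members were positive, against 48.6% of genes off the chromosome. Without the library highest in B cell markers, 235 members were higher and 32 lower, with a median of 0.52. Of the members named below in this comparison, Gapdh was the one whose call changed without it.

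In LCK D/AAA MYCChr6 against RERT2 D/AAA tumours the median was positive at low, middle and high levels of expression. Members under 10 CPM had a median of 0.61 (141 tested), those from 10 to 50 CPM a median of 0.44 (232 tested) and those of 50 CPM or more a median of 0.51 (92 tested). The share of members with a positive fold change in these classes was 73.0%, 78.4% and 82.6%. In RERT2 D/AAA MYCChr6 against RERT2 D/AAA tumours the medians of the same classes were 0.42, 0.38 and 0.38.

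Along the chromosome, members were grouped by start into 15 bins of 10 Mb. Against RERT2 D/AAA tumours all 15 bins had a positive median fold change in both MYCChr6 tumour groups. Some bins were small. In the LCK D/AAA comparison those starting at 0, 10, 20, 60 and 100 Mb had 16, 9, 19, 6 and 10 members tested. In the RERT2 D/AAA comparison those starting at 0, 10, 60 and 100 Mb had 17, 11, 7 and 11. The bin medians ran from 0.25 to 0.74 in LCK D/AAA and from 0.15 to 0.55 in RERT2 D/AAA MYCChr6 tumours. Without replicate 9 the LCK D/AAA medians ran from 0.25 to 0.82, again positive in all 15 bins. The lowest bin in both groups was 130 to 140 Mb, and the highest were 50 to 60 Mb in LCK D/AAA and 60 to 70 Mb in RERT2 D/AAA, the latter with 7 members tested. Gt(ROSA)26Sor, a locus on chromosome 6 often used for insertions, lies in the bin from 110 to 120 Mb, whose medians of 0.52 and 0.38 were near the middle of both ranges. Of 5 members beside that locus, 3 were higher in LCK D/AAA MYCChr6 tumours (Ogg1, a DNA glycosylase, Thumpd3 and Setd5), with a median of 0.63 for the list, and none of the 5 passed in RERT2 D/AAA MYCChr6 tumours. Over all members 48.4% were higher in the first comparison.

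Measured against +/D thymus the same bins were uneven. In LCK D/AAA MYCChr6 tumours the median score of a bin ran from -0.13 at 40 to 50 Mb to 0.85 at 50 to 60 and 60 to 70 Mb. The bin from 60 to 70 Mb holds only 8 members. RERT2 D/AAA tumours without MYCChr6 had bin medians of -0.25 at 40 to 50 Mb, -0.24 at 50 to 60 Mb, -0.29 at 90 to 100 Mb and 0.40 at 20 to 30 Mb. Ratios to thymus thus changed sign along the chromosome in tumours of either kind, while the difference between MYCChr6 tumours and RERT2 D/AAA tumours kept 1 sign in all 15 bins.

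**Figure D3:**
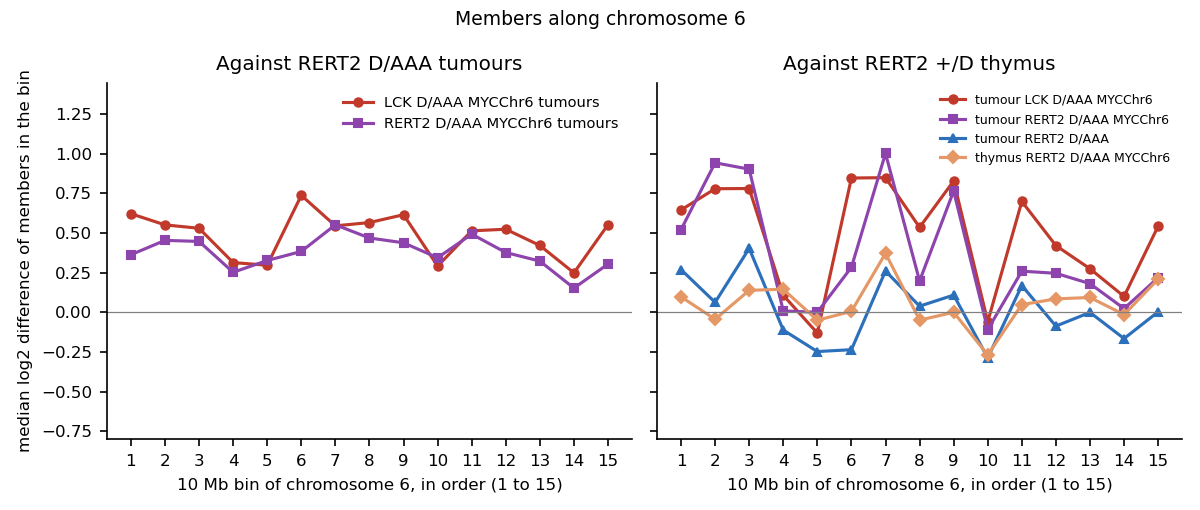
Median log2 difference of the members in each of 15 bins of 10 Mb, in order along chromosome 6: fitted fold changes against RERT2 D/AAA tumours (left) and group medians of the ratio to +/D thymus (right). On the left both lines stay above 0, from 0.15 to 0.74, while on the right some bins lie below 0, down to -0.13 in LCK D/AAA MYCChr6 tumours and -0.29 in RERT2 D/AAA tumours. The right side also shows D/AAA MYCChr6 thymus.

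Over all genes tested on each chromosome, chromosome 6 had the highest median difference from RERT2 D/AAA tumours in both MYCChr6 groups. In LCK D/AAA MYCChr6 tumours its median was 0.50, with 47.1% of 554 genes higher, and the next was chromosome 3 with 0.23 and 29.2%. In RERT2 D/AAA MYCChr6 tumours chromosome 6 had a median of 0.38 with 13.8% of 712 genes higher, and chromosome 10 followed closely with 0.35 and 12.7%. A median of that size was therefore not confined to chromosome 6 in the 3 RERT2 libraries.

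**Figure D4:**
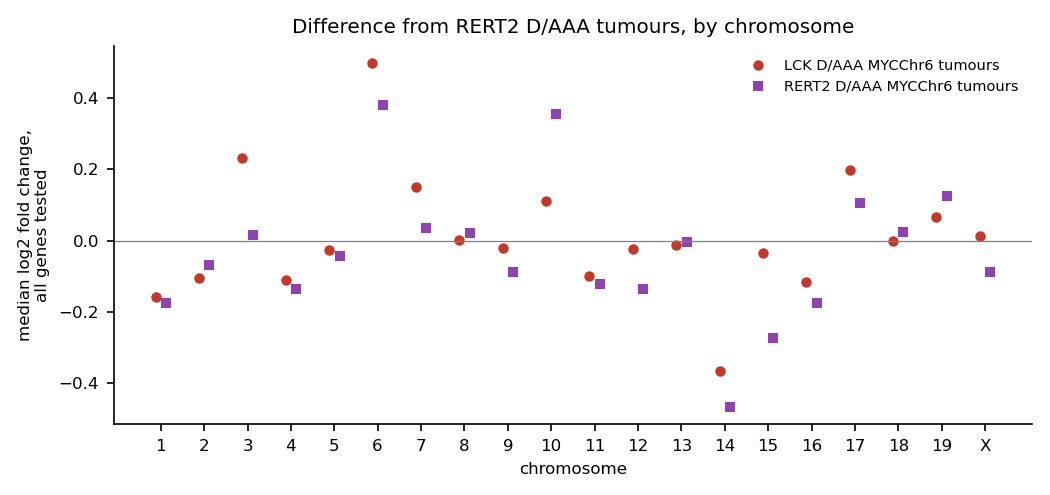
Median log2 fold change of all genes tested on each chromosome, in LCK D/AAA MYCChr6 tumours (circles) and RERT2 D/AAA MYCChr6 tumours (squares) against RERT2 D/AAA tumours. Chromosome 6 is the highest in both, at 0.50 and 0.38, with chromosome 10 at 0.35 in the RERT2 group.

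Ccnd2, which encodes cyclin D2, an activator of CDK4 and CDK6 at the start of the cell cycle, separated the tumours with and without MYCChr6 completely (chromosome 6, 127125162 to 127152193, minus strand, GRCm38). Its level was 222, 295 and 240 CPM in the RERT2 D/AAA, 229 and 194 CPM in the CD4 D/AAA, and 265, 191, 191 and 205 CPM in the LCK +/D MYCChr6 tumours. The LCK D/AAA MYCChr6 tumours ran from 105 to 374 CPM with a median of 218 CPM. All 23 MYCChr6 tumours were thus above all 33 tumours without MYCChr6, in which Ccnd2 ran from 0.163 to 18.3 CPM. Ccnd2 had 48.1 to 76.1 CPM in +/D thymus, 63.2 and 50.3 CPM in +/D MYCChr6 thymus, and 59.1, 108 and 81.4 CPM in D/AAA MYCChr6 thymus. In the 9 D/AAA thymus libraries without MYCChr6 it ran from 3.74 to 167 CPM with a median of 77.5 CPM, overlapping tumours of both kinds.

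The fitted log2 fold change of Ccnd2 was 6.15 ± 0.59 (SE, adjusted p = 3.0e-07 by edgeR) in RERT2 D/AAA and 5.97 ± 0.42 (SE, adjusted p = 4.9e-13) in LCK D/AAA MYCChr6 tumours against RERT2 D/AAA tumours. Against +/D thymus, Ccnd2 fell by 4.23 on the log2 scale in RERT2 D/AAA tumours. Its large difference between tumour groups therefore combines a level below thymus in tumours without MYCChr6 with a level above thymus in those with it. Cdkn1b, which encodes the CDK inhibitor p27, was not called between the tumour groups, at 0.06 ± 0.24 in LCK D/AAA and -0.27 ± 0.46 in RERT2 D/AAA MYCChr6 tumours. Its level was 92.4 to 115 CPM in +/D thymus and 8.27 to 35.3 CPM in LCK D/AAA MYCChr6 tumours, with no overlap.

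Other members with large fold changes passed the test in both comparisons. Chn2, a Rac GTPase-activating protein, had 16.6 to 83.3 CPM in the 3 RERT2 D/AAA MYCChr6 tumours and was listed at 0 in 23 of the 33 tumours without MYCChr6, where the highest level was 3.82 CPM. Ybx3, an RNA-binding cold-shock protein, ran from 11.6 to 102 CPM in the 23 MYCChr6 tumours and from 0 to 14.2 CPM in the 33 others, so that the groups overlapped only slightly. Tes, a focal adhesion protein, rose by 4.61 ± 0.65 in LCK D/AAA and 5.03 ± 1.01 in RERT2 D/AAA MYCChr6 tumours. Gabarapl1, an autophagy protein, rose by 5.68 ± 0.52 and 4.15 ± 1.02 in the same comparisons. Lag3, an inhibitory receptor of T cells, rose by 4.34 ± 0.73 and 4.48 ± 0.91, but in the RERT2 group its fold change was 0.50 and not called without replicate 3.

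The spindle checkpoint list had 5 members tested (of 7 genes listed, 2 of which are not members). Mad2l1, the checkpoint protein that the AAA form of Cdc20 escapes, had 76.8, 61.4 and 52.9 CPM in RERT2 D/AAA, 51.4 and 85.9 CPM in CD4 D/AAA and 59.1, 55.7, 62.6 and 70.3 CPM in LCK +/D MYCChr6 tumours. In LCK D/AAA MYCChr6 tumours it ran from 23.9 to 97.9 CPM with a median of 66.9 CPM, and in RERT2 D/AAA tumours from 23.7 to 92.9 CPM with a median of 39.5 CPM. The groups overlapped throughout. Mad2l1 was higher by 0.57 ± 0.16 (SE, adjusted p = 0.0046 by edgeR) in LCK D/AAA against RERT2 D/AAA tumours, and by 0.55 ± 0.26 in RERT2 D/AAA MYCChr6 tumours, which did not pass (adjusted p = 0.20).

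Foxm1, a transcription factor that drives mitotic genes, went the other way. It ran from 10.3 to 31.9 CPM in LCK D/AAA MYCChr6 tumours and from 27.6 to 75 CPM in RERT2 D/AAA tumours, with little overlap. Its fold change was -1.0 ± 0.16 (SE, adjusted p = 6.4e-06 by edgeR), although it lies on the same chromosome, and -0.64 ± 0.30 in RERT2 D/AAA MYCChr6 tumours, which did not pass. The remaining 3 members of the list did not pass in either comparison.

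**Figure D5:**
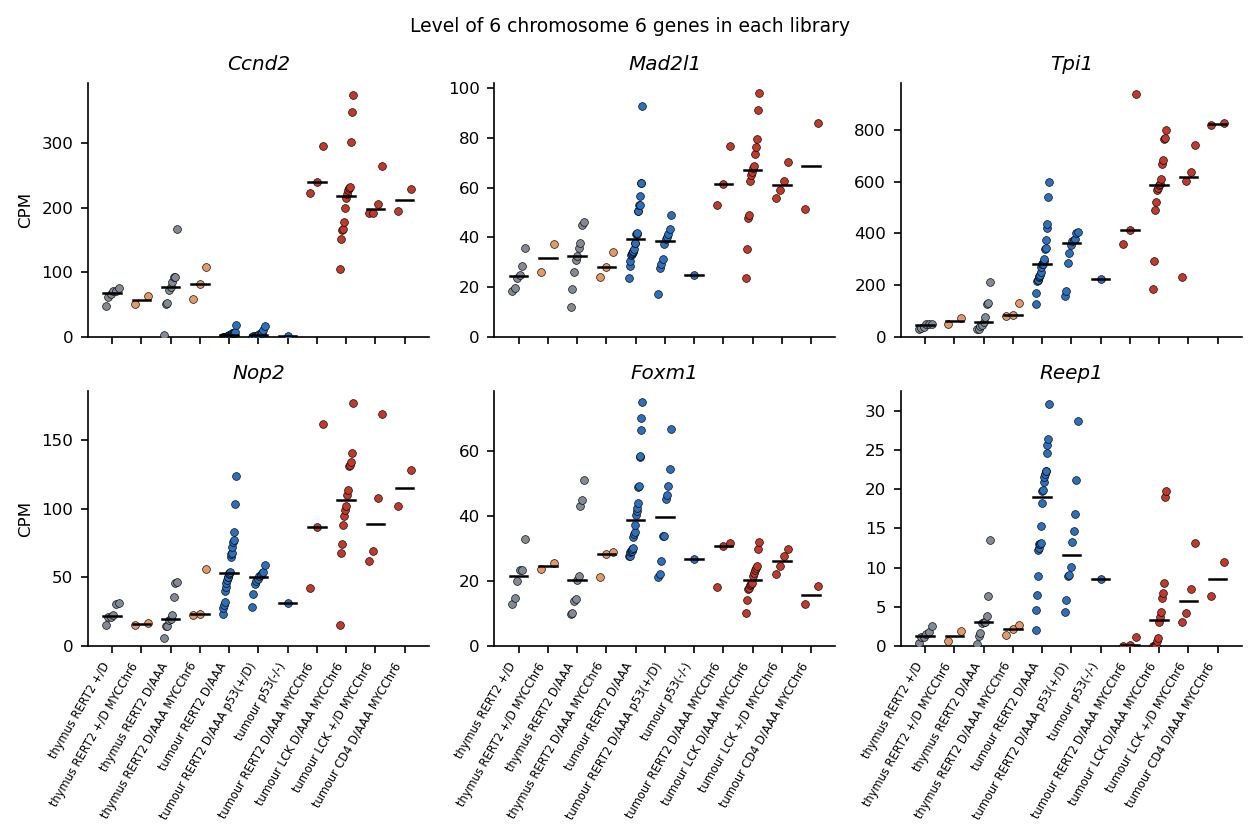
Level in CPM of Ccnd2, Mad2l1, Tpi1, Nop2, Foxm1 and Reep1 in each library by group, with group medians as bars. Ccnd2 lies at 105 CPM or more in all 23 MYCChr6 tumours and at 18.3 CPM or less in the 33 other tumours, while MYCChr6 tumours as a whole overlap the others for Mad2l1, Tpi1, Nop2, Foxm1 and Reep1.

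The counts of the gene lists that follow are read beside the shares over all members and all genes. Higher in LCK D/AAA MYCChr6 against RERT2 D/AAA tumours were 48.4% of members and 18.6% of genes, and in RERT2 D/AAA MYCChr6 tumours 11.9% and 5.65%. No list was tested against the rest of the chromosome. Of the MYC network and nucleolar genes 9 of 9 were higher in the LCK and 2 of 9 in the RERT2 comparison, none was lower, and the medians were 0.71 and 0.51. Without LCK D/AAA replicate 9 the members higher in the LCK comparison were again 9 of 9 in this list, 9 of 11 metabolic, 12 of 14 mitochondrial, 11 of 16 protein turnover, 11 of 13 RNA processing, 6 of 9 signalling, 7 of 20 chromatin, 6 of 13 replication and 9 of 15 lymphocyte genes. Nop2 had 162, 87.1 and 42.2 CPM in RERT2 D/AAA and 129 and 102 CPM in CD4 D/AAA MYCChr6 tumours, against 23.5 to 124 CPM in RERT2 D/AAA tumours. It rose by 0.87 ± 0.20 in LCK D/AAA MYCChr6 tumours and was 0.74 ± 0.34 in the RERT2 group, which did not pass. Snd1, a co-activator and nuclease, rose in both, by 1.03 ± 0.12 and 0.92 ± 0.20. Phb2, a prohibitin of the inner mitochondrial membrane, also rose in both, by 0.77 ± 0.14 and 0.81 ± 0.21. Mxd1, a MAX partner that opposes MYC, rose by 1.42 ± 0.36 in the LCK group and was 0.12 ± 0.58 in the RERT2 group.

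Of the metabolic enzymes, 8 of 11 tested members were higher and 1 lower in LCK D/AAA against RERT2 D/AAA tumours, with a median of 0.95. In the RERT2 comparison 1 of 12 was higher (Tpi1) and 1 lower (Ldhb), with a median of 0.88. Tpi1, triosephosphate isomerase, had 937, 414 and 358 CPM in RERT2 D/AAA, 818 and 825 CPM in CD4 D/AAA and 637, 233, 602 and 741 CPM in LCK +/D MYCChr6 tumours. RERT2 D/AAA tumours ran from 126 to 598 CPM with a median of 281 CPM, and +/D thymus from 32.6 to 51.4 CPM, so that tumours of both kinds lay far above thymus. Tpi1 rose by 0.95 ± 0.17 in the LCK group and by 0.92 ± 0.29 (SE, adjusted p = 0.042 by edgeR) in the RERT2 group. The second call was lost in 4 of the alternative fits, and the fold change was 0.37 without replicate 1.

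Hk2, hexokinase 2, Asns, asparagine synthetase, and Bcat1, the cytosolic branched-chain aminotransferase, rose by 1.95 ± 0.28, 1.35 ± 0.34 and 1.42 ± 0.27 in LCK D/AAA against RERT2 D/AAA tumours. Asns was at 0 to 0.734 CPM in +/D thymus, at 0.397 to 81.0 CPM in RERT2 D/AAA tumours and at 26 to 128 CPM in LCK D/AAA MYCChr6 tumours. Both tumour groups thus reached levels not seen in +/D thymus, and they overlapped each other. Ldhb, a lactate dehydrogenase subunit, fell in both comparisons, with fold changes of -1.03 ± 0.35 and -2.06 ± 0.60. Gapdh was not called in either, at 0.32 ± 0.16 and 0.46 ± 0.25, although without LCK D/AAA replicate 9 its fold change was 0.40 and passed (adjusted p = 0.026 by edgeR).

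Among the housekeeping lists, 12 of 14 mitochondrial proteins, 12 of 16 protein turnover and transport genes and 9 of 13 RNA processing genes were higher in LCK D/AAA against RERT2 D/AAA tumours, and none was lower. Their medians were 0.62, 0.46 and 0.43. In the RERT2 comparison 1 of 14, 4 of 16 and 2 of 13 were higher and none lower, with medians of 0.62, 0.45 and 0.29, and the genes named next are among those few. Pdia4, an endoplasmic reticulum disulfide isomerase, rose by 2.63 ± 0.35, and by 2.09 ± 0.35 in the RERT2 group. Rpn1, a subunit of oligosaccharyltransferase, rose by 1.25 ± 0.15 and 1.11 ± 0.19. Ndufb2, a subunit of respiratory complex I, rose by 0.80 ± 0.12 and 0.83 ± 0.23, and the spliceosomal protein Snrpg by 0.86 ± 0.16 and 0.80 ± 0.24.

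Of the kinase and receptor signalling genes listed, 6 of 10 tested were higher in LCK D/AAA against RERT2 D/AAA tumours and 1 of 10 in the RERT2 comparison, and none was lower. Braf, a kinase of the MAPK cascade, rose by 0.94 ± 0.35 in the LCK group and was 0.59 ± 0.70 in the RERT2 group, which did not pass. Ptpn6, a tyrosine phosphatase of blood cells, rose in both, by 0.96 ± 0.18 and 1.43 ± 0.31.

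Of the chromatin and transcription factor genes 6 of 20 were higher and 1 lower in LCK D/AAA against RERT2 D/AAA tumours, with a median of 0.19, and 0 of 21 passed in the RERT2 comparison by edgeR. Ezh2, the histone methyltransferase of the Polycomb repressive complex, was -0.16 ± 0.15, and Chd4, a chromatin remodeller, was 0.06 ± 0.11. Of 13 DNA replication and repair genes 5 were higher, with a median of 0.13, and none passed in the RERT2 comparison. Mcm2, a subunit of the replicative helicase, was 0.13 ± 0.13. Among the lymphocyte genes 7 of 15 were higher and 3 lower, against 3 higher and 1 lower of 15 in the RERT2 comparison. In LCK D/AAA against RERT2 D/AAA tumours Cd9, a tetraspanin, rose by 3.14 ± 0.51 and Cd69, an activation marker, by 2.80 ± 0.63. They are examples of the higher members, and the 3 lower ones are not named here. Cd69 was itself lower by 2.84 in RERT2 D/AAA tumours than in +/D thymus, with means of 3.52 and 24.8 CPM.

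Some members fell although most of the chromosome was higher. Reep1, a protein that shapes the endoplasmic reticulum, had 1.09, 0.176 and 0 CPM in RERT2 D/AAA MYCChr6 tumours, 10.8 and 6.37 CPM in the CD4 group and 2.02 to 30.9 CPM in RERT2 D/AAA tumours. It fell by 5.20 ± 0.80 in the RERT2 and by 1.70 ± 0.52 in the LCK group on the log2 scale. Usp18, an interferon-induced protease, fell by 5.19 ± 1.29 and by 3.46 ± 0.69 in these groups, although its RERT2 call was lost without any 1 of the 3 MYCChr6 libraries. Smo, the Hedgehog signal transducer, fell by 4.57 ± 0.60 in the LCK group, where it did not overlap RERT2 D/AAA tumours, and was -1.89 ± 0.85 in the RERT2 group. Against +/D thymus, Reep1 rose by 3.55 ± 0.46 in RERT2 D/AAA tumours, from a mean of 1.39 to 17.1 CPM. Its mean of 0.421 CPM in RERT2 D/AAA MYCChr6 tumours thus lay nearer to thymus. The fall of 1.70 in the LCK group was smaller than that rise, and both CD4 libraries stayed above the thymus mean.

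Against +/D thymus, members were called higher more often than all genes in each MYCChr6 tumour group. In LCK D/AAA 194 of 487 members were higher (39.8%) and 58 lower, with a background of 25.1% higher and 19.8% lower, 44.9% in all, and without replicate 9 it was 201 higher and 63 lower with a median of 0.54. LCK +/D tumours had 150 of 471 higher (31.8%, background 16.4%) and 36 lower (7.64%, background 15.9%, 32.3% in all). RERT2 D/AAA MYCChr6 tumours had 131 of 473 higher (27.7%, background 15.5%) and 49 lower (10.4%, background 15%, 30.5% in all), and CD4 D/AAA tumours 148 of 482 higher (30.7%, background 16.9%) and 70 lower (14.5%, background 19.4%, 36.2% in all). Their member medians were 0.52, 0.58, 0.41 and 0.38 on the log2 scale. The LCK +/D median was 0.35 without replicate 4, the library with the score of 0.849.

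In tumours without MYCChr6 the members were not called higher more often than all genes. RERT2 D/AAA tumours had 108 of 483 higher (22.4%, background 22.4%) and 98 lower (20.3%, background 19.1%, 41.5% in all), with a median of 0.03. The p53(+/D) tumours had 99 of 467 higher (21.2%, background 23.0%) and 132 lower (28.3%, background 22.6%, 45.6% in all), with a median of -0.16, so that members were called lower more often than all genes there.

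In thymus without a tumour no member passed between mice with and without MYCChr6 of the same Cdc20 genotype. In +/D mice 0 of 468 members passed between MYCChr6 and +/D thymus by edgeR, with 25 at an unadjusted p under 0.05, 2 called by DESeq2 and a background of 0.194% (0.089% higher and 0.105% lower), and the median was 0.00. In D/AAA mice 0 of 468 passed between thymus with and without MYCChr6, with 22 at an unadjusted p under 0.05, 1 called by DESeq2, a background of 0.0252% and a median of -0.10. D/AAA thymus without MYCChr6 had 0 of 450 members called against +/D thymus, with 32 at an unadjusted p under 0.05, 1 called by DESeq2, a background of 0.0% and a median of 0.03.

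D/AAA MYCChr6 thymus against +/D thymus had 3 of 460 members higher (background 1.72%) and 8 lower (background 1.88%, 3.6% in all). Tpi1 rose by 1.2 ± 0.21, from 43.3 ± 8.07 (SD, n = 6) to 98.9 ± 27.6 CPM (SD, n = 3), with no overlap. Fkbp4, an HSP90 co-chaperone, rose by 1.08 ± 0.19, and Serbp1, an RNA-binding protein, by 0.63 ± 0.16. Plxnd1, a semaphorin receptor of developing thymocytes, fell by 1.40 ± 0.18, from 255 ± 31.1 to 96.5 ± 19.8 CPM. Markers of several cell types differed between these 2 groups. D/AAA thymus without MYCChr6 overlapped both groups, at 3248 to 6085 CPM for thymocyte and 37.7 to 220 CPM for NK markers. In D/AAA MYCChr6 thymus summed thymocyte markers ran from 3389 to 4436 CPM against 5427 to 6314 CPM in +/D thymus. NK markers ran from 103 to 320 CPM against 32.3 to 40.8 CPM, and neither list overlapped. Myeloid markers had a median of 179 CPM against 36.0 CPM, and red cell markers one of 3165 CPM, up to 28920 CPM in replicate 3, against 139 CPM. Their part in these calls was not tested. The count of members called depended on the tool, with 28 by DESeq2 and 0 in 1 fit of all 76 libraries.

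Whether the MYCChr6 difference itself was larger in tumours than in thymus was tested by an interaction term in RERT2 D/AAA mice. Of 515 members tested 4 differed upward (0.78%) and 1 downward (0.19%), with a background of 0.265% and 0.633%. In either direction it was 0.97% of members against 0.898% of all genes, so members were called about as often as genes in general. Ccnd2 differed by 6.02 ± 1.25, Fam3c, a secreted cytokine-like protein, by 3.78 ± 0.82, Lpcat3, a phospholipid-remodelling enzyme, by 1.86 ± 0.40, and Tex261 by 1.34 ± 0.32, and Reep1 by -4.28 ± 1.04. The count of calls lay between 0 and 8 when 1 library was left out. Over all 515 members the median of the fitted difference was 0.45, and 72.2% were positive, against 46.6% of genes off chromosome 6.

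Within LCK MYCChr6 tumours no member passed between the Cdc20 genotypes. Between 14 D/AAA and 4 +/D libraries 0 of 504 members passed by edgeR, with 26 at an unadjusted p under 0.05, 2 called by DESeq2 and a background of 0.0%. The median was -0.04, with an interquartile range of -0.34 to 0.20.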

How the data were processed

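Per the submitters' processing notes, reads were handled with FastQC, STAR 2.5.3a and RSEM 1.3.0 on GRCm38, named there also as mm10; the annotation release and the strandedness are not stated in the sources used here. The deposited table holds the authors' RSEM expected counts per gene, already whole numbers, for 76 libraries and 50686 genes; a second table of sorted cells and early tumours was not used here. Of the genes, 50376 were placed on chromosomes by GENCODE annotation of GRCm38, and no 2 libraries were identical. Reads of paralogs and of antisense genes may be shared.

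CPM used totals scaled by TMM over all libraries, and log2 values for scores a prior count of 2. Two-group fits used edgeR 4.0.16 (filterByExpr, TMM, robust quasi-likelihood test) in R 4.3.3, with Benjamini-Hochberg adjustment over all genes tested; SE is the log2 fold change over the root of F. The steps were tested on simulated data. In all 12 comparisons of 2 groups and 1 interaction were planned, and 1 comparison was added after the data were seen. Alternatives were DESeq2 1.42.0, limma 3.58.1 voom, other scalings and filters, 1 joint fit, and left-out libraries; leaving out LCK D/AAA MYCChr6 replicate 9 was also chosen after the data were seen.

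Named genes were, per comparison, up to 6 in each direction with the largest fold change, a mean of at least 5 CPM in 1 group and at least 80% of libraries on 1 side of the other group's median, plus 12 genes fixed by role; some results are not reported here. Others, among them Asns, Pdia4, Cd9 and Ptpn6 between tumours, come from gene lists written by role. Members, lists and rules were chosen with earlier results of these data known.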

Additional observations from a re-analysis of the deposited data

Results flagged for a closer look

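A check for 1 library far from the rest of its group was run on the chromosome 6 score and on 12 named members in groups of 4 to 10 libraries, 52 tests in all, and found 3. Chance finds about 1 in 20 groups. In the LCK +/D MYCChr6 tumours replicate 4 stood far above the other libraries for Mcm2 at 493 CPM and for Mxd1 at 38.6 CPM. This is also the library with the highest chromosome 6 score, 0.849. In D/AAA thymus replicate 7 stood far above the rest for Gapdh at 707 CPM.

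In 5 of 515 members (0.97%) the MYCChr6 difference in RERT2 D/AAA tumours was not the same as in D/AAA thymus, by the interaction term of edgeR's quasi-likelihood test. Over all 14693 genes tested the share was 0.898%, so the count of members was near the background. The difference between differences was 6.02 for Ccnd2, 1.86 for Lpcat3, -4.28 for Reep1, 1.34 for Tex261 and 3.78 for Fam3c on the log2 scale.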

How the results depend on the processing

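No paired analysis was possible because the labels used here name no pairs of libraries. Of 117 alternative counts of members called, 95 were within 1.5 times the main count, and of 66 alternative medians 62 moved by less than the spread between libraries. The share over all genes under each alternative is not reported here, so the counts below cannot be read against a background. Members called in D/AAA MYCChr6 against +/D thymus were 28 with DESeq2, 24 with no low-count filter, 0 in 1 fit of all 76 libraries and 6 to 8 with 1 library left out. For +/D MYCChr6 thymus they were 2 with DESeq2, 2 with no filter and 0 to 1 with 1 library left out. For D/AAA thymus against +/D thymus DESeq2 called 1, and for D/AAA thymus with against without MYCChr6 it called 1, with 4 where no filter was used. For LCK D/AAA against LCK +/D tumours DESeq2 called 2 and 1 joint fit called 1. The RERT2 D/AAA tumour comparison with and without MYCChr6 called 38 to 59 with 1 library left out. The interaction gave 23 calls with DESeq2, 8 with relative log expression factors, 8 scaled to genes off chromosome 6, 3 in the joint fit and 0 to 8 with 1 library left out.

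The member median of LCK +/D tumours against thymus lay between 0.35 and 0.62 with 1 library left out, and that of +/D MYCChr6 thymus between -0.055 and -0.046. The CD4 D/AAA median was 0.54 after subtracting genes off chromosome 6. Past the gain level were 3 RERT2 D/AAA tumours with members of at least 10 CPM and 2 with a prior count of 0.5, and 2 CD4 D/AAA tumours under each of those settings and after subtracting the other autosomes. With members of at least 10 CPM, bins past the gain level numbered 11 in place of 5 in RERT2 D/AAA MYCChr6 tumours, 3 in place of 1 in those without MYCChr6, and 1 in place of 0 in thymus of D/AAA mice. In RERT2 D/AAA tumours with against without MYCChr6, 3 genes that were not called changed direction. With 1 library left out Chd4 lay between -0.12 and 0.34, Mcm2 between -0.53 and 0.45 and Mxd1 between -0.074 and 0.40, and Mcm2 was -0.095 with limma voom. The cause was not tested. The depth behind members of few counts limits what their tests can show.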
